A study of Mus musculus with 6 samples.

Results

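Fatty acids enter and move through liver cells with the help of 2 kinds of protein, and 7 genes for such proteins were followed across the livers of F1 males whose fathers had or had not drunk inorganic arsenic (iAs). Fabp1, Fabp2, Fabp4, Fabp5 and Fabp7 encode small cytosolic fatty acid binding proteins, while Cd36 and Slc27a4 encode membrane proteins of fatty acid uptake. The genes were picked by name from the family and its uptake partners, with earlier results of the same livers known, so the differences between groups given for them below are descriptions, and calls for them are given only as counts beside those of all genes. All 7 were found among the 16727 gene identifiers used, and all 7 were among the 9695 genes that passed a minimum mean of 1 FPKM over the 6 livers and were tested. FPKM are fragments scaled by transcript length and by the library's total, a scale on which levels of different genes can be set side by side.

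Livers of 6 wild-type male C57BL/6 F1 mice on normal chow were profiled in the refed state. The 3 conF1-M mice had fathers on normal water and the 3 iAsF1-M mice had fathers given iAs in the drinking water, while mothers and offspring of both groups drank normal water, so the exposure was of the father alone. The question was which liver transcripts differ with the father's exposure. The age of these mice and the father and litter behind each liver are not given in the sources used here, so the livers were taken as independent, and the intervals below do not cover mice that share a father or litter. RNA came from whole liver, in which fewer cells of a type and less RNA per cell cannot be told apart.

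Long-chain fatty acids are poorly soluble in water, and fatty acid binding proteins hold them in a barrel-shaped pocket and carry them between the plasma membrane, the endoplasmic reticulum, mitochondria, lipid droplets and the nucleus. In the nucleus some of these proteins hand their ligand to the peroxisome proliferator-activated receptors (PPARs), which in turn switch on genes of fatty acid handling, the binding proteins among them. Each family member has its own main tissue, with FABP1 in hepatocytes and enterocytes, FABP2 in enterocytes, FABP4 in adipocytes and macrophages, FABP5 in skin and macrophages, and FABP7 in the brain and, in mouse liver, in Kupffer cells, the resident macrophages.

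Because Fabp1 and other genes of the set are known as PPAR targets, the stretch before the start of the genes was searched on both strands for letters that PPARs and hepatocyte nuclear factor 4α (HNF4α) are known to bind. RefSeq promoter sequences on GRCm38.p6 were matched for 5 of the 7 genes, with windows of 300 bases that run from 250 bases before to 50 bases after the start. The direct repeat AGGNCANAGGNCA, a PPAR response element, was in the window of Fabp1 and in 125 of all 32851 windows (0.381%). The 3 stretches shown are those of Fabp1 and Fabp2, the most abundant of the genes, and of Fabp7, the gene with the widest gap between the groups. They are written 5′ to 3′ along the gene, with the match in capitals, and those of Fabp1 and Fabp7 end where the most upstream GENCODE transcript begins.
Fabp1: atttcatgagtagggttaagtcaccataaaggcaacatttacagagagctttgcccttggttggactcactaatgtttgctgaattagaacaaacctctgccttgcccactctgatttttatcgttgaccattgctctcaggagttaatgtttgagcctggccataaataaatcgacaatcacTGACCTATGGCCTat
Fabp2: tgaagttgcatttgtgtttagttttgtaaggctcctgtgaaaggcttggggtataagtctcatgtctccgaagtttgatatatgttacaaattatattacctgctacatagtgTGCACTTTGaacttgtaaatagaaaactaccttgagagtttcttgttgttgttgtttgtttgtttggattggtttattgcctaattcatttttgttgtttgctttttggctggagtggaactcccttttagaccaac
Fabp7: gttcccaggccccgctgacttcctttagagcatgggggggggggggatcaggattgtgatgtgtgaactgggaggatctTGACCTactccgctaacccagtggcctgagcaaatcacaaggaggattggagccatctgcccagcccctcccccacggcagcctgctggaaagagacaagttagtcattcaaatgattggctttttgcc

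The Fabp1 stretch is chr6:71199629-71199826 on the plus strand, and its capitals are the direct repeat, read on the other strand, at positions -67 to -55 from the RefSeq start. A TATA box (TATAAA, in 13.6% of all windows) stood at -30 to -25, beyond the printed stretch. The Fabp2 stretch is chr3:122894822-122895071 on the plus strand, and its capitals are an HNF4α-type site (CAAAGTNCA, in 1.41% of all windows) at -137 to -129, again read on the other strand. The Fabp7 stretch is chr10:57784673-57784880 on the plus strand. Its capitals are a single copy of the repeated unit (AGGTCA, in 16.3% of all windows) at -171 to -166, likewise read on the other strand. This unit also makes up -67 to -62 of the Fabp1 repeat and recurs in the Fabp1 window at -9 to -4. The window of Cd36 held this unit at -228 to -223, although the most upstream GENCODE start of Cd36 lies 52905 bases further upstream, and the window of Slc27a4 held none of the 4 motifs. A match of letters is no measure of binding, and only the RNA was measured in these livers.

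Some libraries stood apart before any comparison. Transcripts of sperm-forming cells, which a liver should lack, were present in conF1-M 1 and conF1-M 2, where a list of 12 testis genes summed to 80.5 and 60.3 FPKM. The same list summed to 0.40 FPKM in conF1-M 3, to 0.58, 0.32 and 6.52 FPKM in the iAsF1-M livers, and was led by the protamine genes Prm2 and Prm1. The list was drawn up after these values were seen, and its 5 tested genes reached the minimum mean of 1 FPKM through conF1-M 1 and 2. Their median log2 fold change of -2.18 follows from that choice and is no result about the groups. Of the 5 tested, 0 passed the threshold of an adjusted p of 0.05. All 5 listed enterocyte genes were above 0 in conF1-M 1, where they summed to 2.14 FPKM, against 0.01 to 0.08 FPKM in the other 5 livers. The gut enzymes Alpi and Sis stood at 1.15 and 0.44 FPKM in conF1-M 1 and at 0 in each of the others. Values without conF1-M 1 and conF1-M 2 are therefore given beside those members whose difference they move. The hepatocyte markers were high in all 6 livers, led by Alb at 26548 to 40155 FPKM and Serpina1c at 7227 to 8929 FPKM. FPKM give no read totals, and the steps between low values, which were not sharp enough to recover counts, put the depth only roughly at 21000000 to 23350000 fragments a library, or 0.0428 to 0.0476 FPKM for 1 fragment on a transcript of 1 kb.

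**Figure D1:**
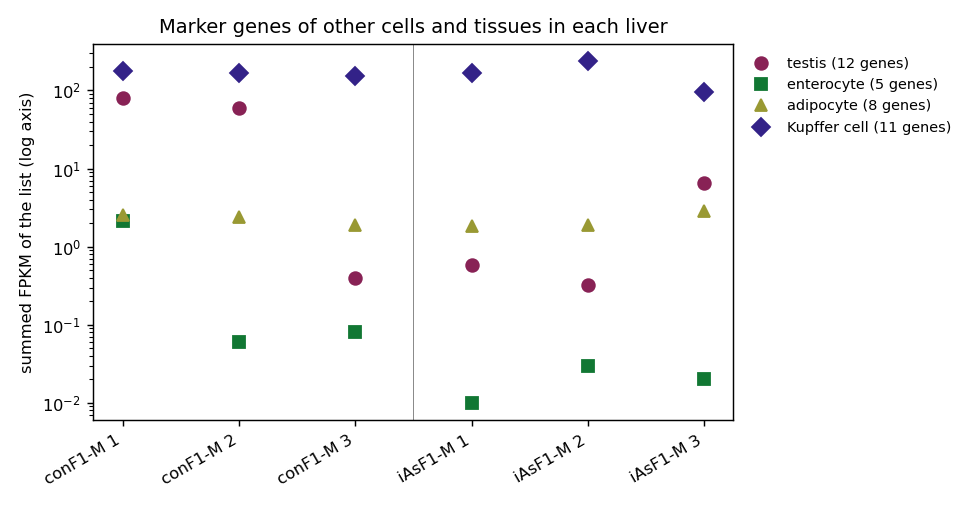
Summed FPKM (log axis) of 4 marker gene lists in each of the 6 livers, 1 point per list and liver, with conF1-M on the left of the line and iAsF1-M on the right. The testis list reached 80.5 and 60.3 FPKM in conF1-M 1 and 2, and the enterocyte list reached 2.14 FPKM in conF1-M 1 alone.

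Fabp1, the liver fatty acid binding protein that carries fatty acids and acyl-CoA in hepatocytes, was the dominant member by far. Its 3 conF1-M livers stood at 12376, 10483 and 10365 FPKM and its 3 iAsF1-M livers at 10610, 8846 and 10198 FPKM. The groups overlapped, with conF1-M 1 the highest and iAsF1-M 2 the lowest of the 6. The gene ranked 12 among all genes by mean level and took up 1.37% to 1.89% of all FPKM in a library. Of the summed FPKM of the 5 binding protein genes, Fabp1 made up 98.5% to 99.1% in every liver. The conF1-M mean was 11074 ± 1129 FPKM and the iAsF1-M mean 9885 ± 923 FPKM (SD, n = 3 each), a log2 fold change of -0.16 on FPKM + 1 with a standard error of 0.16 and a 95% interval of -0.53 to 0.20. Without conF1-M 1 and 2 the value was -0.07. Fabp1 (ENSMUSG00000054422) lies on chromosome 6 of GRCm38 from 71199827 to 71205023, just after the promoter stretch with the direct repeat.

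Fabp2, the intestinal member of the family, was the next most abundant, at rank 619 among all genes. It was measured at 96.6, 102 and 103 FPKM in the conF1-M livers and at 95.8, 119 and 132 FPKM in the iAsF1-M livers. The iAsF1-M livers held both the lowest and the highest value, and their spread was wider, with a coefficient of variation of 16.0% against 3.51% in conF1-M. The log2 fold change was 0.19 (standard error 0.13, 95% interval -0.11 to 0.48), and it moved between 0.08 and 0.32 as each liver was left out in turn. At the ends of that range the 95% interval was -0.19 to 0.36 without iAsF1-M 3 and 0.09 to 0.54 without iAsF1-M 1. Under quantile normalization the 2 groups no longer overlapped, with all iAsF1-M livers higher, and the log2 fold change was 0.27 (95% interval 0.03 to 0.50). At that scaling 639 of the 9695 genes tested were higher with no overlap. In conF1-M 1, the library with enterocyte transcripts, Fabp2 was at 96.6 FPKM, the second lowest value of the 6. Among the measured binding protein genes of the set other than Fabp1, Fabp2 made up 75.5% to 87.5% of the FPKM. An antisense gene (ENSMUSG00000097852) overlaps Fabp2 (ENSMUSG00000023057, chromosome 3 from 122895072 to 122899506), and whether reads were counted by strand is not given in the sources used here, so that reads of both could be mixed.

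Fabp4, the adipocyte and macrophage member, was low. It stood at 8.74, 7.63 and 7.73 FPKM for conF1-M mice and at 5.74, 7.49 and 8.62 FPKM for iAsF1-M mice. The groups overlapped, with iAsF1-M 1 alone below the rest. The log2 fold change was -0.14 (standard error 0.14, 95% interval -0.46 to 0.18), and it was 0.0028 without iAsF1-M 1. Markers of adipocytes were near the floor in all livers, with adiponectin (Adipoq) at 0.03 to 0.27 FPKM and the 8 listed genes summing to 1.84 to 2.87 FPKM, most of it from Adrb3, the 1 gene of the list that was tested (log2 fold change 0.03). Fabp4 (ENSMUSG00000062515, from 10204088 to 10208576 on the minus strand) lies in a cluster of family genes on chromosome 3 with Fabp5, Fabp9 and Fabp12.

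Fabp5, the epidermal member that macrophages also make, varied more from liver to liver than between the groups. It stood at 9.27, 16.5 and 6.29 FPKM for conF1-M mice and at 23.0, 7.74 and 9.50 FPKM for iAsF1-M mice. The highest value (iAsF1-M 1) was 3.66 times the lowest (conF1-M 3), the groups overlapped, and the coefficient of variation was 49.0% in conF1-M and 62.3% in iAsF1-M. The log2 fold change of 0.25 (standard error 0.42, 95% interval -0.73 to 1.24) depended on which livers were used. Omitting iAsF1-M 1 gave -0.19, omitting conF1-M 3 gave -0.04 and omitting conF1-M 2 gave 0.59. With conF1-M 1 and 2 both omitted the value was 0.84. Fabp5 (ENSMUSG00000027533, chromosome 3 from 10012548 to 10016607) has a processed pseudogene, Fabp5l2, with which it could share reads, so its level is uncertain to that extent.

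Fabp7, the brain member, had the lowest level of the 7 genes and the widest gap between the groups. Its conF1-M livers stood at 4.42, 4.16 and 4.68 FPKM and its iAsF1-M livers at 2.26, 1.77 and 1.17 FPKM. Every iAsF1-M liver lay below every conF1-M liver, and the nearest values across the groups were 4.16 FPKM in conF1-M 2 and 2.26 FPKM in iAsF1-M 1. The conF1-M mean was 4.42 ± 0.26 FPKM and the iAsF1-M mean 1.73 ± 0.546 FPKM (SD, n = 3 each), or 0.392 times the level. The log2 fold change was -1.01 on FPKM + 1 (standard error 0.15, 95% interval -1.35 to -0.66), the only interval of the 7 that did not reach 0. At this low level the pseudocount pulls the value towards 0, and a pseudocount of 0.1 gave -1.35. Leaving out each liver in turn gave -1.14 to -0.85, and leaving out conF1-M 1 and 2 together gave -1.08. The groups stayed apart under both other scalings between libraries. Fabp7 (ENSMUSG00000019874) lies on chromosome 10 from 57784881 to 57788450.

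Since Fabp7 is known from mouse Kupffer cells, the markers of these cells were set beside it. Of 11 listed Kupffer genes, all tested, 8 had a log2 fold change below 0 and 3 above, with a median of -0.18 against -0.07 over all genes tested, and 0 passed the threshold. Clec4f, a lectin receptor that defines mouse Kupffer cells and the gene of the list with the smallest p, was measured at 23.7, 21.5 and 19.2 FPKM for conF1-M mice and at 15.1, 18.7 and 12.5 FPKM for iAsF1-M mice (log2 fold change -0.46, adjusted p = 0.58 from limma). Other genes of the list went the other way, among them Adgre1, which encodes the macrophage marker F4/80, with a log2 fold change of 0.19, and the scavenger receptor Marco, with one of 1.84. The most abundant of the list, Cd5l and C1qa, both reached their highest value in iAsF1-M 2 (39.4 and 41.9 FPKM) and their lowest in iAsF1-M 3 (14.9 and 19.0 FPKM). The summed list ran from 154 to 177 FPKM for conF1-M mice and from 94.8 to 238 FPKM for iAsF1-M mice, with iAsF1-M 3 the lowest, as it was for Fabp7, and iAsF1-M 2 the highest. The part of these cells in the level of Fabp7 was not tested.

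Cd36, which encodes a scavenger receptor and fatty acid translocase of the cell surface, differed widely between livers of the same group. It was measured at 25.1, 14.96 and 9.85 FPKM for conF1-M mice and at 10.5, 7.76 and 14.8 FPKM for iAsF1-M mice. The groups overlapped, conF1-M 1 was the highest and iAsF1-M 2 the lowest, as for Fabp1. The iAsF1-M mean was 0.663 times that of conF1-M, a log2 fold change of -0.50 (standard error 0.33, 95% interval -1.26 to 0.25). Omitting conF1-M 1 brought the value to -0.17 (95% interval -0.82 to 0.47) and omitting conF1-M 3 to -0.80 (95% interval -1.53 to -0.08). With conF1-M 1 and 2 both omitted it turned to 0.11. The liver that was highest for Cd36 was the library with enterocyte transcripts. Enterocytes are known to make CD36, and their part in its level was not tested. Cd36 (ENSMUSG00000002944) spans chromosome 5 from 17781690 to 17888801 on the minus strand.

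CD36 is also made by endothelium, so endothelial markers were read beside it. Of 12 listed markers of sinusoidal endothelial cells, which line the liver's capillaries, 11 had a log2 fold change below 0, with a median of -0.27, and 7 were lower in every iAsF1-M liver than in every conF1-M liver, against 11.8% of all genes tested. After scaling by a trimmed mean of ratios between libraries these values were 11 of 12, -0.22 and 4, against 5.59% of all genes. The list summed to 86.3 to 110 FPKM for conF1-M mice and to 66.2 to 77.7 FPKM for iAsF1-M mice. Its most abundant genes were Clec4g, at 23.4, 29.5 and 28.2 FPKM against 18.3, 19.4 and 21.3 FPKM, and Fcgr2b, at 16.3, 22.7 and 18.3 FPKM against 12.6, 12.5 and 15.2 FPKM. None of the 12 passed the threshold, and the adjusted p from limma was 0.56 for Clec4g and 0.57 for Fcgr2b. Unlike Cd36, both were lower in conF1-M 1 than in conF1-M 2 and 3, and the part of these cells in the level of Cd36 was not tested.

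Slc27a4 encodes FATP4, a fatty acid transport protein with acyl-CoA synthetase activity, and was the steadiest of the 7 genes. It stood at 7.92, 7.35 and 7.26 FPKM for conF1-M mice and at 6.64, 6.44 and 6.93 FPKM for iAsF1-M mice. All iAsF1-M livers lay below all conF1-M livers, by a small step. The log2 fold change was -0.15 (standard error 0.08, 95% interval -0.33 to 0.03), and it lay between -0.17 and -0.12 as each liver was left out. With FPKM rescaled by the trimmed mean of ratios the value was -0.08 and the groups overlapped, whereas under quantile normalization it was -0.09 and they did not. Slc27a4 (ENSMUSG00000059316) lies on chromosome 2 from 29802634 to 29817522.

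**Figure D2:**
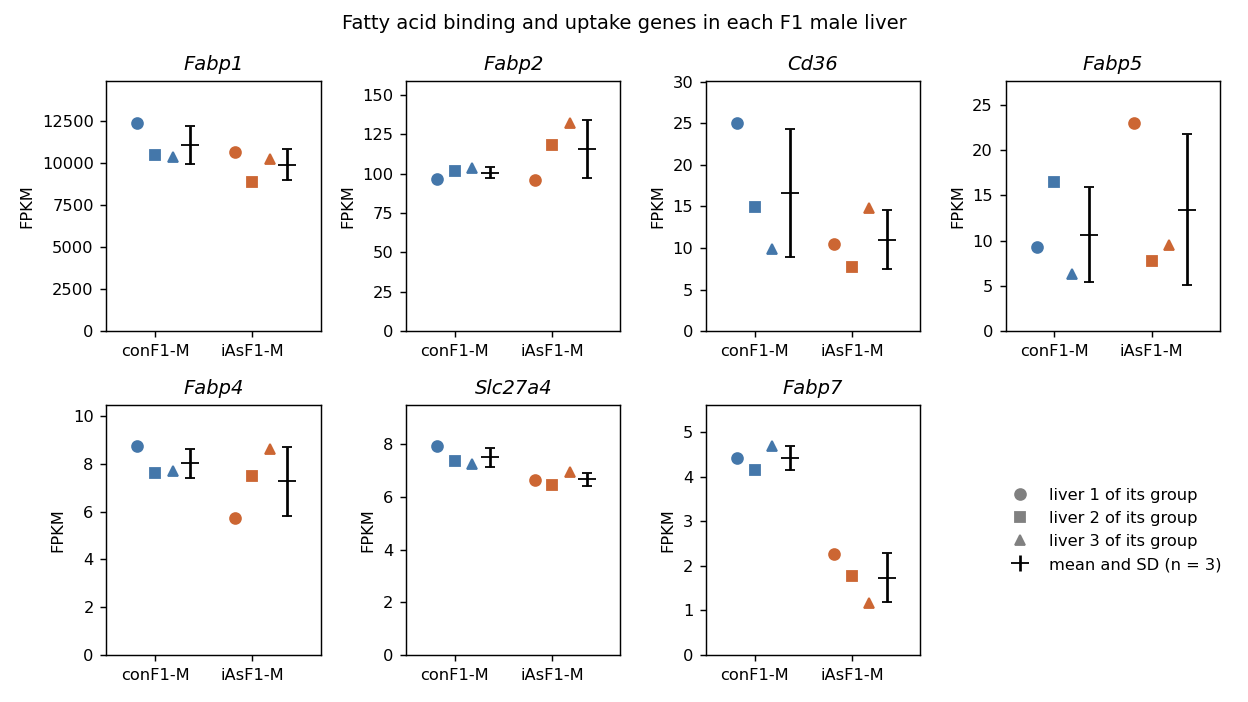
FPKM of the 7 genes in each of the 6 livers (linear axes from 0, 1 axis per gene), with 1 symbol per liver and the mean and SD of the 3 livers of a group as a bar. For Fabp7 the conF1-M livers sat at 4.16 to 4.68 FPKM and the iAsF1-M livers at 1.17 to 2.26 FPKM, while for Fabp5 the groups overlapped.

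The order of the 7 genes by level was the same at its ends in all 6 livers. Fabp1 was first and Fabp2 the next, each with a range apart from the others, and Fabp7 was last, with its highest value of 4.68 FPKM below the lowest of any other gene, 5.74 FPKM of Fabp4. Between them, Cd36 (mean of the 6 livers 13.8 FPKM), Fabp5 (12.0 FPKM), Fabp4 (7.66 FPKM) and Slc27a4 (7.09 FPKM) overlapped and had no fixed order. In iAsF1-M 1, for example, Fabp5 was at 23.0 FPKM and Cd36 at 10.5 FPKM, and in conF1-M 1 the order was the reverse, with 9.27 and 25.1 FPKM.

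In the test across all genes with limma, 6 of 9695 genes passed an adjusted p of 0.05, or 0.0619%, and 0 of the 7 did. At an unadjusted p under 0.05 the count was 1 of the 7 (Fabp7) beside 8.17% of all genes tested. Without iAsF1-M 3 the adjusted threshold was passed by 73 genes, 1 of the 7 among them (Fabp7). Of the 7 genes 5 had a log2 fold change below 0, and so had 69.6% of all genes tested (6744 of 9695, or 4894 after scaling by the trimmed mean of ratios, where the count for the set was again 5). The median was -0.15 for the 7 and -0.07 for all genes, a general shift that the other scalings brought to about 0 (-0.0011 with the trimmed mean of ratios). Fabp7 and Slc27a4 were the 2 of 7 that were lower with no overlap between the groups, which held for 11.8% of all genes (after the trimmed mean scaling, Fabp7 alone and 5.59%), and 0 of 7 were higher with no overlap, which held for 2.37%. Under quantile normalization Fabp7 and Slc27a4 were again the 2 lower with no overlap, beside 6.49% of all genes. Fabp2 was then the 1 higher with no overlap, beside 639 of the 9695 genes. These shares are given as the background of the set, which was chosen with this comparison known.

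**Figure D3:**
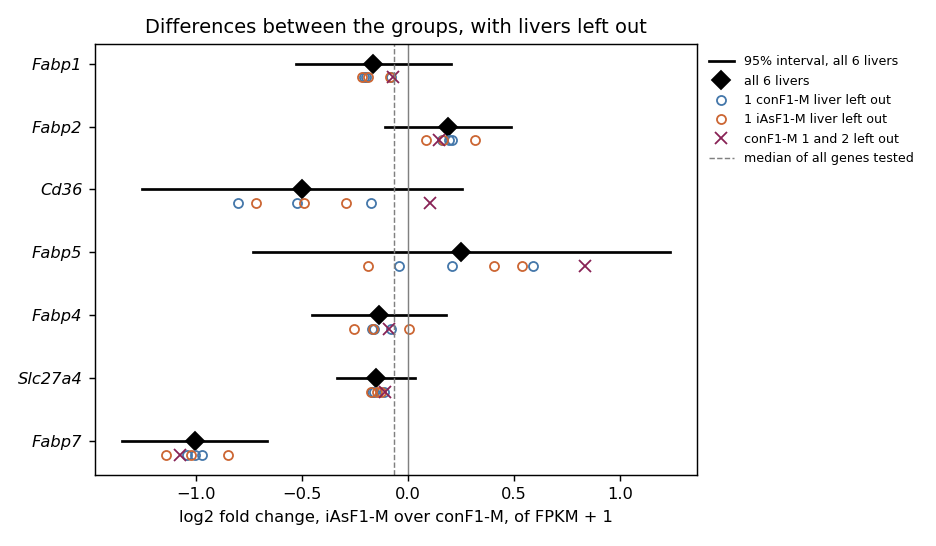
Log2 fold change (iAsF1-M over conF1-M, of FPKM + 1) of the 7 genes, with the value over all 6 livers and its 95% interval (diamond and bar), the values with 1 liver left out (circles), and the value without conF1-M 1 and 2 (cross). The dashed line is the median of all genes tested, -0.07, and the cross of Cd36 lies at 0.11, on the other side of 0 from its diamond at -0.50.

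For the 3 genes with the widest range over the livers, the 3 genes of most similar course were looked up by the root mean square difference of centred log2 values over the 6 livers. For Fabp5 they were Cabyr (0.24), Ifi47 (0.26), a GTPase induced by interferon, and Mup4 (0.31), of the major urinary protein family, whose members may share reads. Ifi47 stood at 5.83, 7.60 and 5.11 FPKM for conF1-M mice and at 15.11, 6.42 and 6.27 FPKM for iAsF1-M mice, with the same highest and lowest livers as Fabp5. For Cd36 they were Tjp3 (0.15), a tight junction protein, Wfdc2 (0.15) and Ugt1a5 (0.16), a glucuronosyltransferase of a locus with shared exons. Wfdc2 stood at 6.65, 3.88 and 2.58 FPKM for conF1-M mice and at 2.40, 2.44 and 4.62 FPKM for iAsF1-M mice, again highest in conF1-M 1. For Fabp7 they were Rtn4rl1 (0.14), Atp13a2 (0.22), a lysosomal cation transporter, and Cd207 (0.23), the C-type lectin langerin. Rtn4rl1 stood at 4.88, 4.72 and 4.24 FPKM and at 2.93, 2.44 and 1.32 FPKM, in the iAsF1-M livers in the same order as Fabp7. The likeness is over 6 libraries, and any difference between the 2 groups counts towards it.

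Of 10 listed cytosolic lipid binding proteins beside the 5, 6 were measured and 0 passed the threshold. Fabp9, the testis member, was at 3.10 and 2.59 FPKM in conF1-M 1 and 2, at 0 in conF1-M 3, at 0 in iAsF1-M 1 and 2 and at 0.15 FPKM in iAsF1-M 3. These are the 3 libraries in which the testis list was highest. Fabp3, the heart and muscle member, reached 0.60 FPKM in conF1-M 1 and at most 0.10 FPKM in the others, and Fabp12 stayed at or below 0.16 FPKM.

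Some other genes of membrane fatty acid transport were far more abundant than Cd36 and Slc27a4. Of 9 listed, 6 were tested, 3 with a log2 fold change above and 3 below 0, a median of 0.02, and 0 past the threshold in either direction. Slc27a2, a transporter and very-long-chain acyl-CoA synthetase of the liver, was at 844, 852 and 848 FPKM for conF1-M mice and at 913, 949 and 800 FPKM for iAsF1-M mice. Slc27a5, the bile acid-CoA ligase of the same family, was at 298, 295 and 282 FPKM and at 252, 284 and 282 FPKM. Mfsd2a, a lysophospholipid carrier, was highest in iAsF1-M 2, at 118 FPKM against 32.4 to 58.8 FPKM in the other livers. The adjusted p from limma was 0.72 to 0.87 for these genes and Slc27a1.

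Genes that supply fatty acids from lipoproteins had a median log2 fold change of -0.20 over the 13 of 14 tested, 4 above and 9 below 0, with 0 past the threshold. After the trimmed mean scaling the median was -0.12, with 5 above and 8 below 0. Angptl4, an inhibitor of lipoprotein lipase that PPARs induce, stood at 55.8, 59.1 and 62.6 FPKM for conF1-M mice and at 79.3, 103 and 60.2 FPKM for iAsF1-M mice (log2 fold change 0.41, adjusted p = 0.61 from limma). Lipc, hepatic lipase, was lower in all iAsF1-M livers, at 57.6 to 65.2 FPKM against 66.1 to 82.6 FPKM, although not after the trimmed mean scaling (log2 fold change -0.24, adjusted p = 0.62 from limma). It was the 1 gene of the 13 that was lower with no overlap, or 7.69%, against 11.8% of all genes tested. Under quantile normalization 2 of the 13, Lipc among them, were lower with no overlap, or 15.4%, against 6.49% of all genes. Angptl8, a feeding-induced regulator of lipoprotein lipase, and Gpihbp1, the capillary anchor of lipoprotein lipase, had log2 fold changes of -0.51 and -0.23.

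Once inside the cell, fatty acids are joined to coenzyme A. Of 16 listed genes of that step or of acyl-CoA binding, 12 were tested, 2 above and 10 below 0, with a median of -0.09 and 0 past the threshold. After the trimmed mean scaling the split was 5 and 7 and the median -0.02. The acyl-CoA binding proteins Acbd4 and Acbd5, which tie peroxisomes to the endoplasmic reticulum, were both lower in every iAsF1-M liver. These were 2 of the 12 tested, or 16.7%, against 11.8% of all genes tested. Under the trimmed mean both stayed lower with no overlap (16.7% against 5.59%), and under quantile normalization Acbd4 alone did (8.33% against 6.49%). Acbd4 was at 21.03, 17.4 and 16.5 FPKM for conF1-M mice and at 12.7, 12.0 and 13.8 FPKM for iAsF1-M mice (log2 fold change -0.48, standard error 0.11), with an unadjusted p under 0.05 and an adjusted p of 0.51 from limma. Acbd5 was at 116, 115 and 106 FPKM and at 100.2, 88.3 and 95.6 FPKM (log2 fold change -0.25, adjusted p = 0.59 from limma). The most abundant of the list were Dbi, the main acyl-CoA binding protein, at 742 to 1033 FPKM, and Acsl1, the main liver acyl-CoA synthetase, at 629 to 795 FPKM, with log2 fold changes of -0.11 and -0.01. Acsl4, a synthetase that prefers arachidonate, had a log2 fold change of 0.52 (adjusted p = 0.62 from limma).

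Targets of PPARα, the receptor of the fasting liver, were read next, and 1 liver stood out. Of 28 listed, 27 were tested, 18 with a log2 fold change above and 9 below 0, with a median of 0.07 and 0 past the threshold. After the trimmed mean scaling 24 were above 0 and 3 below, with a median of 0.15. Their FPKM summed to 12410 in iAsF1-M 2 and to 6705 to 9337 in the other 5 livers. Cyp4a14, a fatty acid ω-hydroxylase, was at 2911 FPKM in iAsF1-M 2 and at 408 to 1452 FPKM elsewhere, and Cyp4a10, of the same family, was at 3130 FPKM there and at 991 to 1722 FPKM elsewhere. Pdk4, the kinase that turns off pyruvate dehydrogenase, was at 7.26 FPKM there and at 0.47 to 2.57 FPKM elsewhere, and Cpt1a, which lets fatty acids into mitochondria, at 254 FPKM there and at 162 to 216 FPKM elsewhere. Fabp1 and Cd36, which are known PPAR targets too, were both at their lowest in that same liver, at 8846 and 7.76 FPKM. The adjusted p from limma between the groups was 0.62 for Pdk4, 0.62 for Cpt1a and 0.66 for Cyp4a10.

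**Figure D4:**
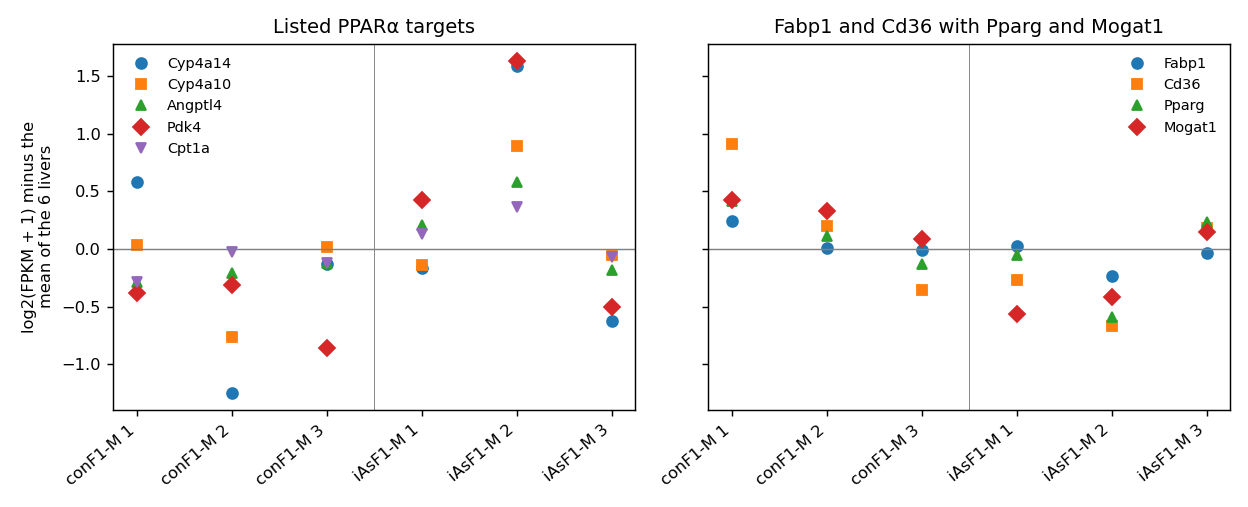
Level of 5 listed PPARα targets (left) and of Fabp1 and Cd36 with Pparg and Mogat1 (right) in each liver, as log2(FPKM + 1) minus the mean of the 6 livers, 1 symbol per gene and liver, with conF1-M left of the line and iAsF1-M right of it. All 5 targets were highest in iAsF1-M 2, where Cyp4a14 was at 2911 FPKM, and Fabp1, Cd36 and Pparg were lowest in that liver.

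PPARγ drives Cd36 and Fabp4 in fat and in fatty liver, and its own gene was read beside them. Pparg stood at 7.0, 5.48 and 4.47 FPKM for conF1-M mice and at 4.78, 2.98 and 6.05 FPKM for iAsF1-M mice (log2 fold change -0.27, adjusted p = 0.72 from limma). It was highest in conF1-M 1 and lowest in iAsF1-M 2, as were Cd36 and Fabp1, a match picked out after the values were seen. Of 9 listed lipid storage genes linked to PPARγ 8 were tested, 5 above and 3 below 0, with a median of 0.09 and 0 past the threshold. Mogat1, a monoacylglycerol acyltransferase, was at 1.94, 1.75 and 1.32 FPKM for conF1-M mice and at 0.48, 0.64 and 1.42 FPKM for iAsF1-M mice (log2 fold change -0.56, adjusted p = 0.59 from limma), with an unadjusted p under 0.05. Cidec and G0s2, lipid droplet proteins, were highest in iAsF1-M 2, at 21.95 and 374 FPKM, and had log2 fold changes of 1.04 and 0.81. Fitm1, which helps form lipid droplets, had a log2 fold change of -0.42 and was lowest in iAsF1-M 2, at 15.5 FPKM.

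Of 18 listed regulators of fatty acid uptake genes, all tested, 6 had a log2 fold change above and 12 below 0, with a median of -0.09, and 0 passed the threshold. After the trimmed mean scaling the split was 9 and 9. Srebf1, the master switch of fatty acid synthesis in the fed liver, was at 19.3, 22.6 and 18.7 FPKM for conF1-M mice and at 8.16, 6.20 and 20.6 FPKM for iAsF1-M mice (log2 fold change -0.91, adjusted p = 0.59 from limma). The iAsF1-M group was split, with iAsF1-M 3 at the conF1-M level. Esr1, the estrogen receptor α, had a log2 fold change of 0.40, Nr1i3, the xenobiotic sensor CAR, one of -0.27 and Nr1h3, the oxysterol receptor LXRα, one of -0.14, with adjusted p from limma of 0.61, 0.62 and 0.63. Hnf4a, the most abundant of the list, was at 96.7 to 176 FPKM with overlapping groups. Over the 7 lists 83 of 102 genes were tested, 0 passed the threshold and 4 (Acbd4, Acbd5, Mogat1 and Srebf1) had an unadjusted p under 0.05, beside 8.17% of all genes tested. All 4 were lower in iAsF1-M, as were 654 of the 792 such genes among all tested (326 of 645 after the trimmed mean scaling).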

How the data were processed

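Liver RNA of 6 refed F1 males, 3 conF1-M and 3 iAsF1-M, was sequenced, with groups and replicate numbers read from the sample labels. The authors filtered paired reads for adapters and low quality, aligned them to GRCm38 with HISAT2 and deposited FPKM, 1 table per liver, rounded to 2 decimals. The program and annotation behind the FPKM, and any scaling between libraries, are not given in the sources used here. The authors tested genes with DESeq2, which needs counts. Counts could not be recovered from the FPKM, since 45.5% to 57.4% of low values came within 0.15 of whole fragments, where chance gives 30%.

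Names and positions came from GENCODE M21, and 16 identifiers on 2 lines were left out. For 9695 genes, whose mean over the 6 livers reached 1 FPKM, log2(FPKM + 1) was fitted with limma 3.58.1 in R 4.3.3 (eBayes with trend), two-sided, with Benjamini-Hochberg adjustment over these genes and a threshold of 0.05. The pseudocount of 1 understates fold changes of low genes. The fit was also run on simulated data with noise drawn independently for each gene and library. Libraries with testis or enterocyte transcripts were not simulated, so that run does not cover them. Python 3.11.15 made the other values. The genes followed, the pathway lists and the marker lists were chosen with earlier results of these data known, and the testis list after seeing the values. Named beside the 7 genes were the 2 to 4 genes of each pathway list with the smallest p, the 2 most abundant of each marker list and any at 0 in all livers (there were none), and the 3 genes nearest in profile to the 3 members with the widest range. Named outside this rule, after their values were seen, were Clec4f, Adgre1, Marco, Cldn5 and Adipoq among the markers, and Fabp3, Fabp9, Fabp12, Dbi, Acsl1, Cyp4a14, Pparg, Hnf4a and Foxa2 among the pathway genes. Other pseudocounts, filters, scalings, variance models, a replicate block and the omission of each liver were tried, and the omission of conF1-M 1 and 2 together was added after seeing the data. Liver RNA of females was not analysed here, and some listed genes are not reported here.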

Additional observations from a re-analysis of the deposited data

How the results depend on the processing

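The count of genes past the threshold, 6 over all livers, was 3 with no filter on low values, 3 without conF1-M 1 and 2 together, and 792 at an unadjusted p under 0.05 (138 higher and 654 lower in iAsF1-M, but 319 and 326 after scaling by a trimmed mean of ratios and 333 and 350 after quantile normalization). Leaving out each liver gave 3 to 73 genes (13 without conF1-M 3 and 73 without iAsF1-M 3), 0 to 1 of the 7 fatty acid genes (Fabp7, without iAsF1-M 3) and 0 to 3 listed pathway genes. The last included Foxa2 and Srebf1 without iAsF1-M 3, and 1, Fabp9, passed without conF1-M 3. Over all livers Fabp9 had a mean of 0.97 FPKM and was not tested. Without conF1-M 3 it reached the minimum mean through conF1-M 1 and 2, the libraries with testis transcripts. Its call follows from that choice of livers and is no result about the groups. At an unadjusted p under 0.05 the counts were 1 of the 7 and 4 listed genes. With the replicate number as a block 5 genes and 0 of the 7 passed, and livers that share a number did not deviate together in all pairs (correlations of 0.167, -0.10 and -0.02). The log2 fold change of Fabp7 was -1.40 with a pseudocount of 0.01 and -0.95 after scaling by the trimmed mean, and Fabp7 was not tested at a minimum mean of 5 FPKM. That of Slc27a4 was -0.09 after quantile normalization. FPKM without counts give no counting error, and values of a few hundredths of an FPKM rest on about 1 fragment. The cause of these shifts was not tested.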

Other observations

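Markers of other liver cells were read in the same livers. Stellate cells, which store retinol, were represented by 7 tested genes of 9, with 0 past the threshold. All 7 had a log2 fold change below 0, with a median of -0.26 against -0.07 over all genes tested. After scaling by a trimmed mean of ratios all 7 stayed below 0, with a median of -0.18. After quantile normalization 6 of 7 did, also with a median of -0.18. The most abundant, Dcn and Ecm1, stood at 67.4 to 93.9 FPKM and 39.3 to 69.1 FPKM, both highest in conF1-M 2. Of the vascular endothelial list 3 of 7 genes were tested, with a median of -0.14 (-0.07 after scaling by a trimmed mean of ratios). The most abundant, Plvap and Ly6a, had overlapping groups and log2 fold changes of -0.14 and 0.11. The third, Cldn5, a tight junction protein of endothelium, was at 1.69 to 2.14 FPKM in conF1-M and 0.99 to 1.10 FPKM in iAsF1-M (log2 fold change -0.48, adjusted p = 0.40 from limma). Monocyte and neutrophil genes gave 2 of 8 tested, Lyz2 and S100a9, with a median of -0.13, and the cholangiocyte list gave 1 of 6, Spp1, with a log2 fold change of 0.30. Of the hepatocyte list 6 of 10 genes had a log2 fold change above 0 and 4 below, with a median of 0.02.

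Marco, a scavenger receptor of macrophages and 1 of the 11 listed Kupffer genes, was chosen after its values were seen. It stood at 1.28, 1.60 and 1.21 FPKM in conF1-M and at 10.2, 28.4 and 0.82 FPKM in iAsF1-M. Its log2 fold change of 1.84 had a standard error of 0.85 (limma, adjusted p = 0.62). In the livers iAsF1-M 1 and 2 Marco, Cidec and G0s2 were above every conF1-M liver and Srebf1 below every one, while iAsF1-M 3 lay below all conF1-M livers for Marco and G0s2. These genes of different lists were put together after their values were seen, and how many of all genes split this way was not counted. Pparg, of the same list as Cidec and G0s2, did not, with iAsF1-M 1 at 4.78 FPKM and conF1-M livers at 4.47 to 7.0 FPKM.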
